A study of Homo sapiens with 6 samples.

Results

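The 10 genes described here encode the machinery that moves a cell from G1 into S phase: the D-type cyclins CCND1, CCND2 and CCND3, their kinases CDK4 and CDK6, the E-type cyclins CCNE1 and CCNE2 with their kinase CDK2, the retinoblastoma protein RB1, and the transcription factor E2F1. They were taken by gene symbol from a count table of 21503 genes, in a choice made with earlier results of these data known. All 10 were found there and passed the filter on low counts, among 19430 genes tested. RNA had been measured by bulk RNA-seq in UMUC3 cells, an established human bladder carcinoma line, that had grown for 14 days after orthotopic transplantation into the bladders of C57 nude mice. The 3 control libraries came from cells labelled control and the 3 knockdown libraries from cells labelled GANAB knock down. GANAB encodes the catalytic subunit of glucosidase II, which trims glucose from new N-glycans in the endoplasmic reticulum. Nude mice lack mature T cells but keep other host cells, so a bladder tumour can hold host stroma and blood cells. The sources used here do not give how GANAB was lowered, whether the cells were a clone or a pool, or whether each library had its own mouse. The p-values therefore measure spread among these libraries alone, and that spread may be technical.

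In the textbook scheme, growth signals raise the D-type cyclins, which bind CDK4 or CDK6 and begin to phosphorylate RB1. RB1 without these phosphates holds E2F1 and its relatives in check at promoters, and once RB1 is released by cyclin D and then cyclin E with CDK2, E2F factors switch on the genes of DNA synthesis, cyclin E and E2F1 itself. Much of this control acts on the proteins, through phosphorylation, inhibitors and degradation, none of which RNA levels show.

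In this scheme E2F factors act on the E2F1 promoter, so the 250 bases before its RefSeq start are printed here (chr20:33686386-33686635, GRCh38.p14, minus strand, 5′ to 3′). Capitals mark its 2 matches to E2F site letters. GENCODE starts the gene at 33686404, inside the printed stretch.

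E2F1: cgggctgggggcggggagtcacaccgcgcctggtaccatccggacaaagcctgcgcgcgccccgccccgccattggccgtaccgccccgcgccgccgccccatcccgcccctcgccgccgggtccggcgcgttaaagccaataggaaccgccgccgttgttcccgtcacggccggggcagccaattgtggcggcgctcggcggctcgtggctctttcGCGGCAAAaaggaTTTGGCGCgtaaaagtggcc

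The letters searched were TTTCCCGC, TTTCGCGC, TTTGCCGC and TTTGGCGC, on both strands of windows from 250 bases before to 50 after each RefSeq start. The upstream match in E2F1 lies 33 to 26 bases before the start and reads TTTGCCGC on the opposite strand. The downstream match, TTTGGCGC on the strand of the gene, lies 20 to 13 bases before it. Among all 35116 windows of this length 3.31% held at least 1 match and 0.145% held 2 or more. Windows were found for 6 of the 10 genes, 9 windows in all. E2F1 held the letters, and CCND3, CDK4, CDK6, CCNE1 and an internal start of RB1 did not.

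For comparison, matches in the promoters of RBL1, which encodes an RB1 relative, and of MCM3 and MCM6, which encode subunits of the replicative helicase, are given with their flanks, all on the minus strand of GRCh38.p14. They lie at chr20:37096000-37096039, chr6:52284893-52284932 and chr2:135876510-135876549.

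RBL1: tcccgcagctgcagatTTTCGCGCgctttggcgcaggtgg

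MCM3: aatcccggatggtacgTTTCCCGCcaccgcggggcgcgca

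MCM6: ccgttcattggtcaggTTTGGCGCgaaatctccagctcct

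Capitals mark 1 match in each, although all of these promoters hold at least 1 further match. The RBL1 stretch also holds TTTGGCGC in lower case, and in the MCM6 stretch a further match overlaps the marked one. A match of letters describes these windows and is no evidence of binding here.

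Library totals ran from 11737837 to 40039584 estimated counts, and the smallest count behind any value of the 10 genes was 133 (CCNE2 in control library 3). GANAB itself measured 685, 825 and 661 CPM (count per 1e6 counts after TMM scaling) across control libraries and 231, 238 and 230.5 CPM across knockdown ones. It fell by 1.63 on the log2 scale (edgeR adjusted p = 0.00239), in the direction the labels give. The control libraries lay far apart, with a biological coefficient of variation of 52.3% against 10.7% in the knockdown. The edgeR fit shares its spread estimate for each gene between the groups, so its SEs and p-values pool these unequal spreads. Control library 1 held 29.2% mitochondrial ribosomal RNA against 0.928% to 2.43% in the others, and protein-coding genes made up 54.6% of its TPM (transcripts scaled for length to a fixed library sum) against 90.9% to 95.1%. TPM values of that library carry this difference. Of 11 markers used for the line, KRT8 and KRT18 measured 80.7 to 248 CPM with overlapping groups. VIM, an intermediate filament gene of mesenchymal cells, rose from 2640 ± 642 to 5584 ± 78.2 CPM (SD, n = 3, edgeR adjusted p = 0.0206), the only one of 8 tested markers called. Its part in the results for the 10 genes was not tested. EPCAM and CDH1 did not exceed 0.5603 CPM in any library. EPCAM was not tested, and its knockdown values (0.212 to 0.5603 CPM) lay above its control values (0 to 0.105 CPM). Of the urothelial and basal genes, UPK3A and KRT20 were not in the count table, and KRT5 and PPARG reached at most 7.90 and 11.2 CPM with overlapping groups. UPK2 (at most 3.36 CPM) and GATA3 (at most 3.03 CPM) were low, with every knockdown value above every control value, and did not pass (log2 fold changes 2.27 and 1.81, edgeR adjusted p = 0.149 and 0.0585).

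Of the 10 genes, CCND2 rose and E2F1 fell in the knockdown, and the other 8 did not pass at an adjusted p under 0.05 in edgeR. CCND2, which varied least of the 10 genes among controls, was 1.69-fold higher, and E2F1 was 2.01-fold lower. In bulk RNA, fewer cells of a type or cycle phase and less RNA per cell cannot be told apart. Across all tested genes 8.31% passed, 4.59% as higher and 3.72% as lower, and with 10 genes, 2 calls cannot be set apart from that background. The groups did not overlap in CPM for 5 of the 10 genes, CCND2, CCND3, CCNE2, CDK2 and E2F1, where 37.6% of all tested genes did not overlap. The median log2 fold change of the 10 genes was -0.43, beside 0.03 for all tested genes, with 7 of them negative. On the TPM scale (limma-trend, 1 or 0.1 added) the medians were -0.06 in both for the 10 genes, 5 of them negative, and 0.23 and 0.28 for all genes. There 90.7% and 89.4% of the called genes were higher, against 55.3% in edgeR.

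**Figure D1:**
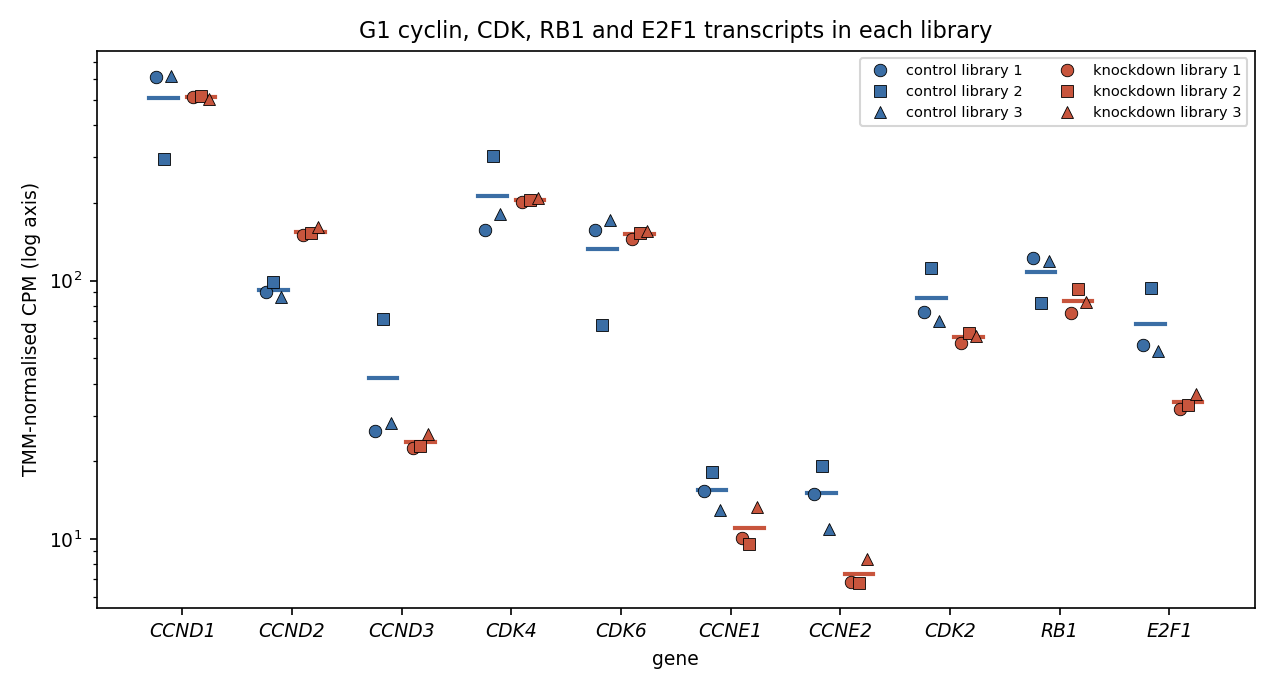
TMM-normalised CPM (log axis) of the 10 genes in each of the 3 control (blue) and 3 knockdown (red) libraries, with the group mean as a bar. The knockdown points of CCND2 lie above, and those of E2F1 below, all control points, and control library 2 (blue square) stands apart for CCND1, CCND3, CDK4, CDK6 and E2F1.

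CCND1, the most abundant D-type cyclin transcript here, did not pass. Given in the order of libraries 1, 2 and 3, CCND1 measured 615, 295 and 618 CPM across control libraries and 515, 519 and 502 CPM across knockdown ones. The knockdown values lay between control library 2 and the other controls, and the log2 fold change was 0.01 (SE 0.27, edgeR adjusted p = 0.991). CCND2 measured 90.5, 98.5 and 86.1 CPM across control libraries and 149.9, 152.8 and 161.5 CPM across knockdown ones. All 3 knockdown values exceeded all 3 control values, and the log2 fold change was 0.76 (SE 0.12, edgeR adjusted p = 0.0154). The same order held in TPM, with 16.5 ± 4.12 in control and 32.4 ± 0.963 in knockdown libraries (SD, n = 3). CCND3 measured 26.3, 71.3 and 28.1 CPM across control libraries and 22.6, 23.0 and 25.4 CPM across knockdown ones. Control library 2 alone was high, and the log2 fold change of -0.82 (SE 0.38) did not pass (edgeR adjusted p = 0.219).

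CCND2 (chromosome 12, 4273772 to 4305350, plus strand, GRCh38) shares its locus with CCND2-AS1 on the opposite strand and with the unnamed protein-coding model AC008012.1 on its own strand. The sources used here do not give whether counting used strand, so reads of the antisense partner cannot be told apart. CCND2-AS1 measured 0.894 to 1.36 CPM across control libraries and 1.81 to 2.52 CPM across knockdown ones, far under CCND2, with a log2 fold change of 0.96 that did not pass (edgeR adjusted p = 0.202). The other genes lie on chromosomes 11 (CCND1, 69641087 to 69654474, plus strand), 6 (CCND3, 41934933 to 42050357, minus), 19 (CCNE1, 29811898 to 29824308, plus), 8 (CCNE2, 94879770 to 94896678, minus), 7 (CDK6, 92604921 to 92836594, minus), 13 (RB1, 48303726 to 48599436, plus) and 20 (E2F1, 33675683 to 33686404, minus). CDK2 (55966769 to 55972784, plus) and CDK4 (57747727 to 57756013, minus) lie on chromosome 12 as CCND2 does. Of the 10 genes, CCNE1 and E2F1 overlap no other gene in GENCODE and the other 8 do, each with at least 1 on the opposite strand.

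The kinases of the D-type cyclins did not pass either. CDK4 measured 157, 303 and 181 CPM across control libraries and 202, 204 and 209.7 CPM across knockdown ones, so the knockdown libraries lay inside the control range. Its log2 fold change was -0.06 (SE 0.24, edgeR adjusted p = 0.916). CDK6 measured 158, 67.5 and 172 CPM across control libraries and 145, 153 and 156 CPM across knockdown ones, with a log2 fold change of 0.19 (SE 0.32, edgeR adjusted p = 0.759). In control library 2 CDK4 was at its highest and CDK6 at its lowest.

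Of the E-type cyclins, CCNE2 lay just outside the threshold. CCNE2 measured 14.97, 19.2 and 10.95 CPM across control libraries and 6.85, 6.80 and 8.41 CPM across knockdown ones. Every knockdown value lay below every control value, and the log2 fold change of -1.04 (SE 0.26) gave an edgeR adjusted p of 0.0509. CCNE1 measured 15.4, 18.2 and 13 CPM across control libraries and 10.2, 9.60 and 13.3 CPM across knockdown ones, where knockdown library 3 reached into the control range. Its log2 fold change was -0.50 (SE 0.22, edgeR adjusted p = 0.209). CDK2, the kinase both E-type cyclins bind, measured 75.96, 112 and 69.5 CPM across control libraries and 57.2, 62.8 and 61.2 CPM across knockdown ones. The groups did not overlap, and the log2 fold change of -0.51 (SE 0.20) did not pass (edgeR adjusted p = 0.152).

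RB1, the brake on E2F, measured 122, 81.7 and 119 CPM across control libraries and 74.8, 92.5 and 82.3 CPM across knockdown ones. Control library 2 lay among the knockdown libraries, and the log2 fold change was -0.37 (SE 0.19, edgeR adjusted p = 0.261). E2F1 measured 56.5, 93.99 and 53.5 CPM across control libraries and 31.96, 33.0 and 36.5 CPM across knockdown ones. All knockdown values lay below all control values, and the fitted log2 fold change was -1.01 with an SE of 0.23. E2F1 thus fell to 49.7% of control (edgeR adjusted p = 0.0404). In TPM, E2F1 was 30.8 ± 14.3 in control and 17.3 ± 1.13 in knockdown libraries (SD, n = 3).

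Neither call held in every fit. Leaving out any 1 knockdown library, neither gene passed, with an edgeR adjusted p of 0.113 to 0.128 for CCND2 and 0.168 to 0.199 for E2F1, in fits that called 0.311%, 0.575% and 0.440% of all genes. E2F1 also did not pass without control library 1 (edgeR adjusted p = 0.0544, 7.89% of all genes called). On the TPM scale neither passed in limma-trend with 1 or 0.1 added (5.31% and 3.38% called), and both passed once TPM was rescaled over protein-coding genes (9.76% called), a setting chosen after seeing the data. Both also passed with DESeq2 size factors (8.31%), with upper-quartile scaling (8.19%) and with no filter (6.98%). Summing the knockdown libraries to 1, likewise chosen after seeing the data, left neither (0.00495% of all genes called).

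Leaving out control library 2 turned the direction of CCND1, CDK4 and CDK6. Without it CDK4 joined CCND2 as higher (log2 fold change 0.29, edgeR adjusted p = 0.04505), and CCND1 (-0.26), RB1 (-0.53), CCNE2 (-0.82) and E2F1 (-0.70) were lower, with edgeR adjusted p of 0.0382, 0.00783, 0.0261 and 0.00182. In that fit 27.7% of all genes were called, 13.9% as higher and 13.8% as lower, beside 2 higher and 4 lower of the 10. CDK6 turned to -0.12 without passing. CCND3 moved from -0.82 to -0.19 without passing (edgeR adjusted p = 0.234), and its mean control level from 29.2 to 17.2 TPM. CCNE2 also passed without control library 3 (8.66% called), with DESeq2 (18.8%), with limma-voom (12.1%), with limma-voom and quality weights (19.1%, where RB1 passed too) and with the stricter filter of 5 CPM (15.3%).

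**Figure D2:**
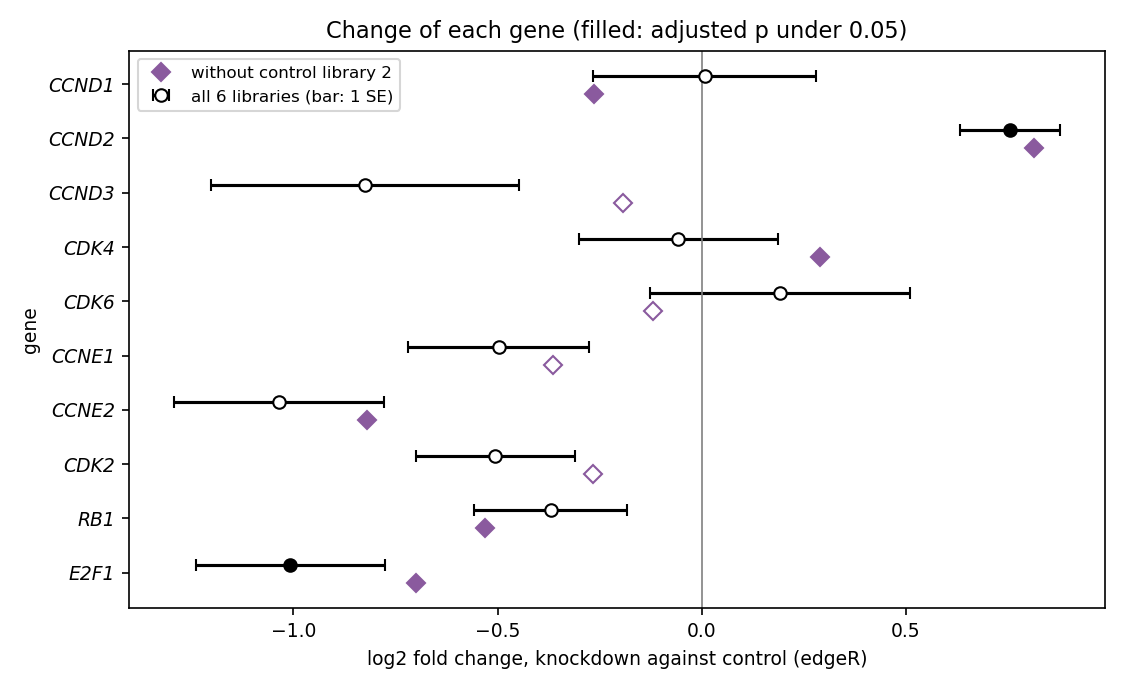
Log2 fold change of knockdown against control for each gene in edgeR, with all 6 libraries (circles, bars 1 SE) and without control library 2 (diamonds), filled where the adjusted p is under 0.05. CCND2 and E2F1 keep their side of 0 in both fits, while CCND1, CDK4 and CDK6 change side.

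Control library 2 held the highest control value of CCND2, CCND3, CCNE1, CCNE2, CDK2, CDK4 and E2F1 and the lowest of CCND1, CDK6 and RB1. Relative to the mean of the other controls it was 2.62 times as high for CCND3, 1.80 times for CDK4 and 1.71 times for E2F1, and 0.409 times for CDK6 and 0.479 times for CCND1. The highest control value exceeded the lowest 2.71-fold for CCND3 and 1.14-fold for CCND2, the extremes of the 10 genes. Among knockdown libraries that ratio ran from 1.03 for CCND1 to 1.39 for CCNE1.

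Levels of different genes can be compared only per length, so on the TPM scale. In knockdown libraries the order was CDK4 (225 ± 7.57 TPM), CCND1 (175 ± 7.30), CDK2 (52.8 ± 5.47), CCND2 (32.4 ± 0.963), RB1 (27.01 ± 0.622), CDK6 (20.8 ± 0.557), CCND3 (19.7 ± 2.58), E2F1 (17.3 ± 1.13), CCNE1 (10.55 ± 2.77) and CCNE2 (4.71 ± 0.983; all SD, n = 3). The ranges of CDK6 and CCND3 overlapped, and so did those of CCND3 and E2F1, while other neighbours did not overlap. In control libraries CDK4 (219 ± 104 TPM), CCND1 (142 ± 55.5) and CDK2 (59.2 ± 15.2) also led and CCNE1 (11.95 ± 2.65) and CCNE2 (8.17 ± 2.15) came last. Between them came E2F1 (30.8 ± 14.3), CCND3 (29.2 ± 20.8), RB1 (27.45 ± 7.11), CCND2 (16.5 ± 4.12) and CDK6 (15.8 ± 9.985). Neighbours in the control order overlapped except CCND1 with CDK2 and RB1 with CCND2. CCND2 stood below E2F1 and CCND3 in mean control TPM and above both in the knockdown.

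The division of each family among its genes, which does not depend on the sum TPM is scaled to, is shown as shares of the summed TPM. CCND2 made up 7.48%, 12.2% and 7.39% of D-type cyclin transcripts in control and 14.0%, 13.5% and 15.25% in knockdown libraries, with no overlap. CCND1 held 82.7%, 55.5% and 84.8% in control and 76.6% to 77.7% in knockdown libraries. CCND3 held 32.3% in control library 2 and 7.84% to 9.87% in every other library. Without that library the mean control share of CCND3 was 8.855% in place of 16.7%, and that of CCND1 was 83.7% in place of 74.3%, so above its knockdown share of 77.1% rather than below. CDK6 was 10.55%, 2.26% and 10.6% of the CDK4 and CDK6 sum in control and 8.40% to 8.54% in knockdown libraries. CCNE2 was 41.7%, 42.4% and 37.4% of the E-type cyclin sum in control and 30.05%, 33.0% and 30.2% in knockdown libraries, again with no overlap.

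**Figure D3:**
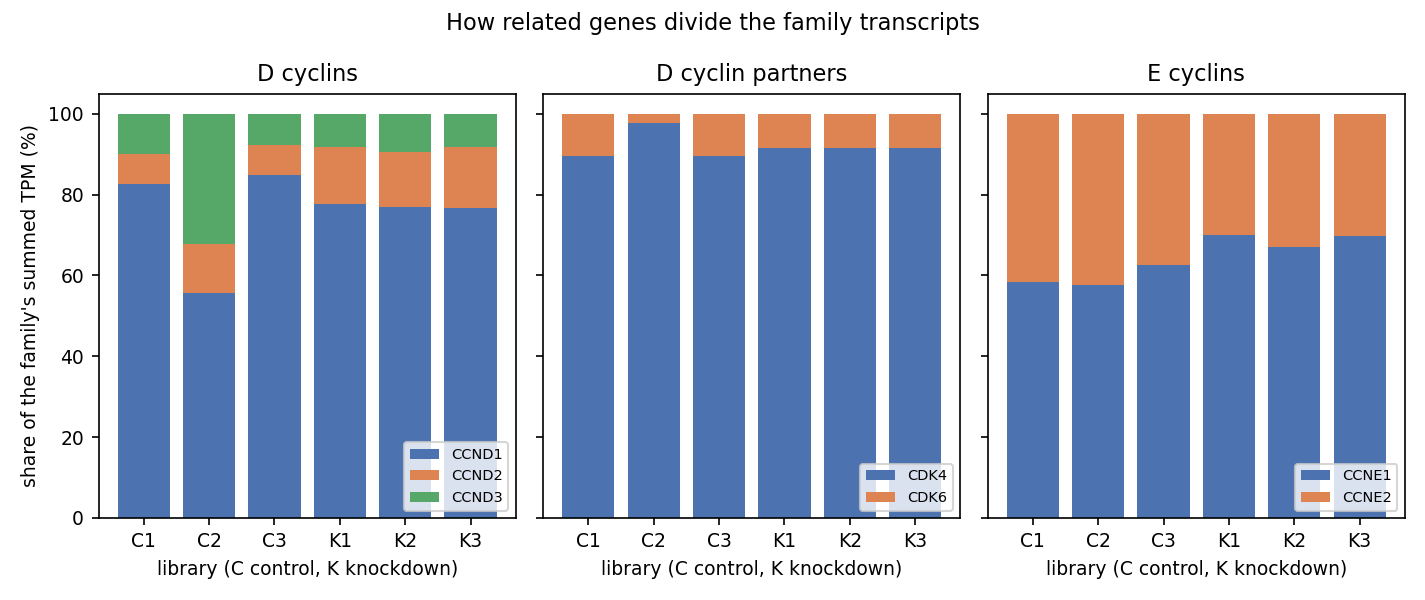
Share of each gene in the summed TPM of its family (%) for 3 control (C1 to C3) and 3 knockdown (K1 to K3) libraries. The CCND2 band is wider and the CCNE2 band narrower in K1 to K3 than in C1 to C3, and C2 has the widest CCND3 band and the narrowest CDK6 band.

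Whether partners differed in their change was tested on log2 ratios of CPM (0.1 added) with a two-sided exact permutation test, which cannot go below p = 0.1 for 3 against 3. CCNE2 relative to CCNE1 was -0.07 ± 0.16 in control and -0.57 ± 0.08 in knockdown libraries on the log2 scale (SD, n = 3, exact permutation p = 0.1, 0.2 adjusted over 4 ratios). E2F1 relative to RB1 was -0.69 ± 0.77 and -1.29 ± 0.17 (exact permutation p = 0.1, 0.2 adjusted). Neither pair of groups overlapped, and both p-values were the smallest possible. For CDK6 to CDK4 (difference 0.30, exact permutation p = 1) and CCND3 to CCND1 (difference -0.75, exact permutation p = 0.8) the groups overlapped. Without control library 2 these 2 differences turned to -0.41 and 0.07, and the E2F1 to RB1 difference shrank from -0.61 to -0.16.

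The wider pathway was followed in 5 lists of 56 other genes. The S phase list, genes of DNA synthesis with textbook E2F control, fell throughout, all 17 of its genes in edgeR, with a median log2 fold change of -1.12. Of the 37 tested genes in the other lists, 6 were lower and none higher, where 3.72% of all tested genes were lower and 4.59% higher. The lists were chosen with earlier results of these data known, so these counts are not independent evidence of a direction. ORC1, an origin recognition subunit, fell from 30.1 ± 0.776 to 10.8 ± 0.998 CPM (SD, n = 3, edgeR adjusted p = 0.00415). MCM6 fell from 95.1 ± 1.13 to 47.1 ± 1.17 CPM and MCM5 from 128.8 ± 10.8 to 59.6 ± 2.905 CPM, both helicase subunits. The E2F letters stood in 47.4% of this list's promoter windows, which describes genes that were chosen for E2F control. They stood in 30.8% of the windows of E2F1 and RB1 relatives, beside 3.31% of all windows. The shares were 8.33% for CDK activation and cyclin turnover, 9.09% for DREAM and MuvB and none for CDK inhibitors. In these other lists no gene found to hold the letters was called in edgeR, and not every gene had a window.

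Of 11 relatives of E2F1 and RB1, 2 fell and none rose, with a median of -0.33. The passing genes were E2F8 and E2F7, which encode atypical E2F repressors. E2F8 measured 19.75, 13.9 and 18.3 CPM across control libraries and 6.80 to 7.07 CPM across knockdown ones, with a log2 fold change of -1.32 (edgeR adjusted p = 0.0141). E2F7 had a log2 fold change of -1.13 (edgeR adjusted p = 0.02185). RBL1, whose site is printed above, averaged 31.9 ± 6.63 CPM across control libraries and 19.1 ± 1.14 CPM across knockdown ones without passing (edgeR adjusted p = 0.0553).

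Among genes of CDK activation and cyclin turnover 2 of 15 fell and none rose, with a median of -0.38. CCNH, the cyclin of the CDK-activating kinase, fell from 59.7 ± 4.40 to 37.4 ± 1.93 CPM (edgeR adjusted p = 0.0244). SKP2, which marks the inhibitor p27 for degradation, fell from 31.7 ± 7.31 to 17.9 ± 1.62 CPM (edgeR adjusted p = 0.0481), and its partner CKS1B (log2 fold change -0.72) lay just outside (edgeR adjusted p = 0.0520). Of 6 subunits of the DREAM and MuvB complexes, which repress or activate cell cycle promoters, MYBL2 fell from 135 ± 76.6 to 49.3 ± 3.76 CPM (edgeR adjusted p = 0.0493). LIN37 (log2 fold change 0.94) and RBBP4 (-0.20) did not pass. The calls of SKP2 and MYBL2 each held in 7 of 18 alternative fits, and both were lost with upper-quartile scaling (edgeR adjusted p = 0.0563 and 0.0542), with no filter (0.0536 and 0.05195), without control library 1 (0.0762 and 0.0537) and without any 1 knockdown library.

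Of 7 CDK inhibitor genes 5 were tested. CDKN1A, which encodes p21, fell from 171 ± 20.7 to 83.2 ± 5.17 CPM (edgeR adjusted p = 0.00976). CDKN1B, which encodes p27, measured 80.2, 48.4 and 107 CPM across control libraries and 108 to 119.8 CPM across knockdown ones and did not pass (log2 fold change 0.55, edgeR adjusted p = 0.245). CDKN2D was at -0.42 without passing. CDKN2A and CDKN2B, whose products inhibit CDK4 and CDK6, were not in the count table, and in the TPM table CDKN2A was listed at 0.135 TPM in control library 1 and both at 0 in every other case.

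**Figure D4:**
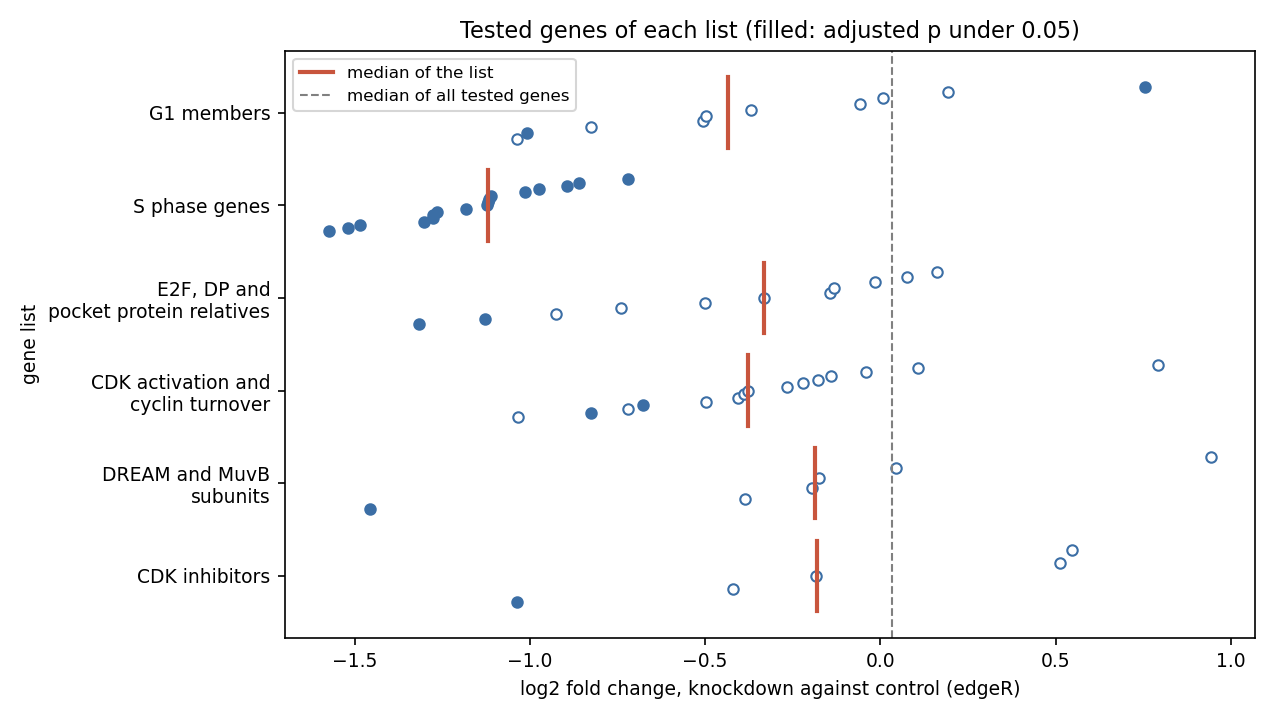
Log2 fold change of each tested gene (points, filled where the edgeR adjusted p is under 0.05) in the 10 genes and the 5 pathway lists, with each list's median (red bar) and the median of all tested genes (dashed line, 0.03). All 17 S phase genes are filled and lie below 0, around a median of -1.12, whereas the 10 G1 genes spread from -1.04 to 0.76.

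These list counts also varied with the libraries fitted. Leaving out knockdown library 1, 2 and 3 in turn, 0, 1 and 0 of the 54 tested list genes were lower, against 23 with all libraries. The share of all genes called in those fits fell likewise, from 8.31% to 0.311%, 0.575% and 0.440%.

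Genes whose values followed those of CCND1 and E2F1 most closely were sought among 9606 protein-coding genes with at least 10 CPM, by the root mean square difference of centred log2 CPM over the 6 libraries. For CCND1 they were EIF4G3 (0.0391), WNK1 (0.0435) and RASA1 (0.0445), beside a median of 0.465 over all genes compared. EIF4G3 shared the dip of control library 2, with 140.3, 70.8 and 142 CPM across control libraries and 117 to 121.5 CPM across knockdown ones. For E2F1 they were MCM3 (0.0598), the proteasome gene PSMA7 (0.0739) and the glycolysis gene GPI (0.0746), beside a median of 0.579. MCM3 measured 145, 224 and 138 CPM across control libraries and 84.97, 85.97 and 87.2 CPM across knockdown ones, with the same peak in control library 2 as E2F1.

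Of the host marker lists, the summed smooth muscle and endothelial levels were higher in every knockdown library than in any control library, and the sums of the fibroblast and lymphocyte lists overlapped. Smooth muscle markers summed to 167 to 255 CPM across control libraries and 475 to 503.5 CPM across knockdown ones, and 4 of 7 rose. Among all tested genes, 4.59% were called higher, and the groups did not overlap in CPM for 37.6%. The called genes were MYH11, ACTA2, TAGLN and CNN1 (log2 fold changes 3.98, 1.62, 1.345 and 1.39, edgeR adjusted p = 0.01298, 0.03105, 0.02035 and 0.0335). MYH11 measured 0.905 to 6.95 CPM across control and 54.6 to 57.9 CPM across knockdown libraries. DES and LMOD1 were also higher without passing. SMTN went the other way without passing, at 59.0 to 85.0 CPM across control and 54.7 to 55.7 CPM across knockdown libraries. Fibroblast and matrix markers summed to 19.1 to 209 CPM across control libraries and 158 to 159 CPM across knockdown ones, and 1 of 5 tested rose. Endothelial markers summed to 1.89 to 3.35 and 5.11 to 6.55 CPM, and lymphocyte and NK markers to 1.15 to 2.94 and 1.503 to 3.82 CPM, with none called. The groups overlapped for every tested endothelial marker but CDH5 (0 to 0.405 and 2.46 to 3.13 CPM). PECAM1 was lower in the knockdown (log2 fold change -0.57) without passing. Macrophage markers summed to 88.97 to 295 and 76.4 to 77.7 CPM, so the sum was lower in every knockdown library than in any control library. It was mostly CD68, with control library 2 highest, while PTPRC did not exceed 1.25 CPM. CSF1R went the other way without overlap (0 to 0.331 and 0.471 to 0.917 CPM), and ADGRE1 overlapped (17.1 to 36.85 and 19.35 to 20.1 CPM). None of the tested macrophage markers was called. LUM, DPT, CLDN5, EMCN, CD14, FCER1G, CD3E, CD2, MS4A1 and NKG7 were not in the count table. All these levels are of human genes, and whether they came from host cells or from the human cells was not tested. The part of the host marker lists in the results for the 10 genes was not tested either.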

How the data were processed

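Libraries were made from TRIzol-extracted RNA with a VAHTS Universal V6 kit, per the labels' protocols. The submitters' processing notes name GRCh38, Salmon, fastp and DESeq2 (roles and versions not given in the sources used here). The authors deposited estimated counts per gene, written as whole numbers, and TPM values, which scale for length and library total. The sources used here do not give how mouse reads were handled. Column names carry the abbreviation KO where the labels say knock down, and were matched by group and number.

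The main test was edgeR 4.0.16 (R 4.3.3), quasi-likelihood, two-sided, on all 6 libraries with filterByExpr, TMM and Benjamini-Hochberg adjustment over 19430 genes at 0.05. SEs came from the fold change and F statistic. The filter removed 2073 genes. Alternatives changed the scaling, the filter, the tool (limma 3.58.1, DESeq2 1.42.0 after the same filter), the unit (TPM, pseudocounts 1 and 0.1), a replicate block and each library left out, and 2 were added after seeing the data. The test was also run on simulated counts drawn with equal spread in both groups. The spread here was unequal, so that run cannot show how the test behaves on these data. Loci and overlaps came from GENCODE (GRCh38), promoters from RefSeq (GRCh38.p14). The 10 genes, the lists and the tests were chosen with earlier results of these data known. Besides the 10 genes, named genes were GANAB, the 3 genes of smallest p in each pathway list, and the 3 genes closest to CCND1 and to E2F1. Genes from the host and line marker lists, CDKN2A, CDKN2B, CCND2-AS1 and the unnamed model at CCND2 were named after their values were seen.

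Within groups, library pairs differed beyond sampling noise (chi-square per degree of freedom 130 to 513 in control, 6.06 to 7.72 in knockdown).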

Additional observations from a re-analysis of the deposited data

How the results depend on the processing

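Over 18 alternatives, CCND2 stayed positive (log2 fold change 0.66 to 1.00) and passed in 11, and E2F1 stayed negative (-1.21 to -0.70) and passed in 10. The count of higher genes among the 10 was 1 with all libraries and 0 on both TPM scales, with the replicate block and with summed knockdown libraries, and 0 to 2 leaving out 1 library. The count of lower genes was 2 with DESeq2, limma-voom and the 5 CPM filter, 3 with quality weights, 0 on both TPM scales, with the block and with summed libraries, and 0 to 4 leaving out 1 library. All genes called numbered 1614, against 3655 with DESeq2, 3716 with quality weights, 828 and 526 on the TPM scales with 1 and 0.1 added, 566 with the block, 1 with summed libraries and 62 to 5604 leaving out 1 library. Of the pathway lists, 23 genes were lower, against 1 and 0 on the TPM scales, 11 with the block, 0 with summed libraries and 0 to 31 leaving out 1 library. Pathway genes higher numbered 0, but 1 with DESeq2, 2 with limma-voom, 2 with quality weights, 1 with rescaled TPM and 0 to 2 leaving out 1 library.

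With no library left out, signs turned for 4 genes. CCND1 turned to -0.01 with DESeq2 size factors and with DESeq2 (-0.01301 in both) and to -0.18 with quality weights. CDK4 turned to 0.0047 with limma-voom, 0.24 with quality weights, 0.16 and 0.17 on the TPM scales and 0.0048 with the block. On the TPM scales RB1 turned from -0.37 to 0.0053 and 0.0064, and RBBP4 to 0.13 and 0.14. CDK6 and CDKN2D turned only without control library 2. Leaving out 1 library, the ranges were -0.2639 to 0.1507 for CCND1, -0.27 to 0.29 for CDK4, -0.12 to 0.38 for CDK6 and -0.67 to 0.05284 for CDKN2D. The log2 ratio differences then ran from -0.41 to 0.68 for CDK6 to CDK4 and from -1.18 to 0.0681 for CCND3 to CCND1.

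CPM in place of TPM ignores length and gave mean shares of 15.1% and 22.4% for CCND2 (control and knockdown), 77.3% and 74.2% for CCND1, whose order was the opposite on TPM, 7.59% and 3.43% for CCND3, 60.9% and 57.6% for CDK4, 39.1% and 42.4% for CDK6, 51.2% and 59.8% for CCNE1 and 48.8% and 40.2% for CCNE2. The labels do not give whether equal replicate numbers pair the samples. Correlations of deviations for equal numbers were 0.00032 to 0.0195, and only control library 3 correlated best with its own number. These values show no effect shared by number but cannot settle the design. With the replicate block (2.91% of genes called) CCND2 and E2F1 gave an edgeR adjusted p of 0.0729 and 0.07845.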
